A study of Mus musculus with 12 samples.

Results

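The 10 keratin genes described here are the keratins of basal and stratified epithelium (Krt5, Krt14, Krt15, Krt17, Krt1 and Krt10) and those of simple, glandular and airway epithelium (Krt7, Krt8, Krt18 and Krt19). They were chosen by name, as the rows of the deposited gene count table that carry these symbols, and make up 10 of its 23358 genes. The table held 41 other keratin genes. RNA was sequenced from newborn mouse skull at postnatal day 3, from the frontal bone region, which also held nasal bone and the frontonasal and coronal sutures. There were 4 groups of 3 libraries: C57BL/6 wild type (replicates 1 to 3), C57BL/6 mutant (replicates 4 to 6), BALB/c wild type (replicates 13 to 15) and BALB/c mutant (replicates 16 to 18). The mutants carried 1 copy of Fgfr2 with the protein change C342Y, labelled FGFR2C342Y/+, used to model the early suture fusion of Crouzon syndrome. The comparisons ask how the mutation changed expression on each strain background and how the backgrounds differed. The labels do not say whether each library came from its own animal, so p-values measure the spread between these libraries, which may be technical.

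Keratins are the intermediate filament proteins of epithelial cells. A filament is built from pairs of a type II keratin (here Krt5, Krt1, Krt7 and Krt8) and a type I keratin (here Krt14, Krt15, Krt17, Krt10, Krt18 and Krt19). Basal cells of skin and of airway and olfactory epithelium make Krt5 and Krt14, skin cells that leave the basal layer switch to Krt1 and Krt10, and single-layered epithelium makes Krt8 and Krt18. Bone cells are not a usual source of these keratins, and the dissected region borders on skin and on the nasal lining.

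The type II genes lie together on mouse chromosome 15 and the type I genes on chromosome 11, with Krt18 as the exception in the type II cluster. In the deposited table, Krt8 spans chr15:101996711-102004342 and Krt18 chr15:102028216-102032026, with 23.9 kb and no other row of the table between them. Krt5 spans chr15:101707070-101712891, Krt1 chr15:101845426-101850786 and Krt7 chr15:101412403-101427806. Krt14 spans chr11:100203162-100207510, Krt17 chr11:100256217-100260989, Krt15 chr11:100131759-100135949, Krt19 chr11:100140811-100145919 and Krt10 chr11:99385256-99389364. The coordinates are those of mm10 (GRCm38), the build in the submitters' processing notes, and each of the 10 rows overlapped the GENCODE gene of the same name in GRCm38. Some keratins resemble each other in sequence. Of the 50-base words in the GENCODE transcripts of Krt8, 29.7% also occurred in another gene, most often in the pseudogene Krt8-ps. The share was 13.9% for Krt14 (most often Krt16), 12.2% for Krt5 (Krt6a) and 4.00% for Krt17 (Krt14), so low counts of these 4 genes are uncertain. Krt10 and Krt7 are overlapped by the antisense genes Gm11940 and Gm671, Krt8 by the long noncoding gene Gm36026 and Krt5 by the miRNA gene Gm44323, all on the opposite strand. The strand setting of the counting is not given in the sources used here, so reads of these 4 keratins and of the genes opposite them cannot be told apart.

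The 250 bases before the start site are shown for 5 genes, 3 whose levels differed widely between libraries (Krt5, Krt8 and Krt18) and 2 whose levels varied least (Krt7 and Krt10). They come from the RefSeq promoter table for GRCm38.p6, which matched 6 of the 10 genes. Each runs 5′ to 3′ on the gene's strand and ends at the base before the start site. Capitals mark matches on either strand to 4 searched motifs: the TATA box TATAAA, the AP-1 motif TGANTCA, the GC box GGGCGG and the grainyhead-like motif AACCNGTT. 
Krt5, chr15:101712906-101713155, minus strand: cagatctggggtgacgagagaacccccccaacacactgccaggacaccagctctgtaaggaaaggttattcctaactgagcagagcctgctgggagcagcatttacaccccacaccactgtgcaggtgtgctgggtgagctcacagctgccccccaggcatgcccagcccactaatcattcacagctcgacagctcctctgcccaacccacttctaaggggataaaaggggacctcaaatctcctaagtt
Krt8, chr15:102004343-102004592, minus strand: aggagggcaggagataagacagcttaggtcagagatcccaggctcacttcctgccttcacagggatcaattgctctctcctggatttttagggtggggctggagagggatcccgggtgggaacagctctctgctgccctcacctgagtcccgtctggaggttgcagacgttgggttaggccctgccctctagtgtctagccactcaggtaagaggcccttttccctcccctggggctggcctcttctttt
Krt18, chr15:102027966-102028215, plus strand: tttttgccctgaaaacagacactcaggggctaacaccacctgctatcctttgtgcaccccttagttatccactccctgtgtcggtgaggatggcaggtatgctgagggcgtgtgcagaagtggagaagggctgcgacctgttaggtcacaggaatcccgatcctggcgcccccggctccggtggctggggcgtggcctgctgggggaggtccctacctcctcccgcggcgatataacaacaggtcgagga
Krt7, chr15:101412153-101412402, plus strand: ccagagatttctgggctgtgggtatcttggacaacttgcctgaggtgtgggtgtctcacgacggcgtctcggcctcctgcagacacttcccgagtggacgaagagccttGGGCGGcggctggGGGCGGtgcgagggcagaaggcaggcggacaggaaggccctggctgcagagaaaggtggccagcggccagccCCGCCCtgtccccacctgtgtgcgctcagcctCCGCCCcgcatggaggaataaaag
Krt10, chr11:99389365-99389614, minus strand: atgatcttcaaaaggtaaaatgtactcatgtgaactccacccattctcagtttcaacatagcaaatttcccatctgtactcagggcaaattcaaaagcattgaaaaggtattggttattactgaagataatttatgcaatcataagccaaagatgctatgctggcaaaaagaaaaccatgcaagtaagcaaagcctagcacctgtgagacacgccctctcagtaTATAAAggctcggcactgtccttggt
The Krt10 window held 1 TATA box, starting 26 bases before the start site. The Krt7 window held 4 GC boxes, starting 141, 128, 56 and 24 bases before it, the last 2 on the other strand. None of these letters was found in the windows of Krt5, Krt8 and Krt18, and no matches overlapped. Among 32851 promoter windows of the same length, 12.4% held the TATA box, 6.75% the AP-1 motif, 32.7% the GC box and 1.79% the grainyhead-like motif. A match is a description of these letters only.

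Total gene counts ran from 27.2 M to 46.5 M per library. Levels are given in CPM, counts per 1 M counts of the composition-adjusted library size. Levels are compared between genes only as CPM per kilobase of coding length. Each deposited count was even, and 2 counts are taken here as 1 read pair, a reading that no source used here states. A floor of 3 counts per library lay between 0.0646 and 0.113 CPM and covers counting error only. The bone markers Col1a1, Col1a2 and Spp1 were present in all 12 libraries, and none of the 10 osteoblast markers was at 0 in any library. Summed over the 10 keratins, C57BL/6 wild type libraries held 139.7 CPM in replicate 1, 291.2 CPM in replicate 2 and 75.9 CPM in replicate 3. C57BL/6 mutant replicate 4 held 46.6 CPM, while mutant replicates 5 and 6 held 8.73 and 9.81 CPM. The 6 BALB/c libraries held 9.53 to 12.3 CPM. Replicates 2 and 4 therefore stand apart from the others of their groups, and results that rest on them are given with them and without them. Wild type C57BL/6 replicate 1 stood apart in the osteoblast markers, whose sum was 113743 CPM there and 185195 to 262792 CPM in the other 11 libraries. In bulk RNA, fewer cells of a type and less RNA per cell cannot be told apart. The labels give no sex, and counts of Y-linked genes were 60 in mutant replicate 4, 42 in mutant replicate 5, 6876 in mutant replicate 6 and 5164 to 6018 in the 3 wild type C57BL/6 libraries, so they went in part with genotype. In BALB/c they were 5530 in wild type replicate 15, 4846 in mutant replicate 16 and at most 8 in the other 4 libraries. The part of sex in the keratin results was not tested.

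Krt5 and Krt14, the keratin pair of basal cells, were high in 1 wild type C57BL/6 library and near the floor in BALB/c. Krt5 measured 9.40, 81.6 and 4.45 CPM in wild type C57BL/6 replicates 1, 2 and 3, and 2.67, 0.0485 and 0 CPM in mutant replicates 4, 5 and 6. In BALB/c, Krt5 had 2 counts in wild type replicate 13, 4 counts in mutant replicate 17 and 0 in the other 4 libraries. Replicate 2 was the highest for Krt5, replicate 4 was the only mutant well above the floor, and the wild type and mutant C57BL/6 ranges did not overlap. Krt14 followed the same order, with 2.81, 24.6 and 1.29 CPM in the wild type C57BL/6 replicates and 0.587, 0.0485 and 0 CPM in the mutants. Krt14 had 0 counts in all 6 BALB/c libraries. Per kilobase, Krt5 stood at 2.54, 2.52 and 2.62 times Krt14 in wild type C57BL/6 replicates 1, 2 and 3, and at 3.44 times in mutant replicate 4, where Krt14 rests on 26 counts. The ratio of the pair was thus nearly fixed across the wild type C57BL/6 libraries while the level of Krt5 varied widely between them.

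Krt15, a type I keratin of basal cells that includes the hair follicle bulge among its sites, came mostly from 1 library. It measured 0.727, 85.4 and 0.107 CPM in wild type C57BL/6 replicates 1, 2 and 3, and 0.0904, 0 and 0.0539 CPM in mutant replicates 4, 5 and 6. In BALB/c it measured 0.0751, 0 and 0.176 CPM in wild type replicates 13, 14 and 15 and 0, 0.301 and 0 CPM in mutant replicates 16, 17 and 18. Replicate 2 held 2836 of the 2896 Krt15 counts in the whole series, and replicate 3 lay within the BALB/c range. Krt14 per kilobase stood at 4.00, 0.298 and 12.4 times Krt15 in wild type C57BL/6 replicates 1, 2 and 3, so the 2 type I basal keratins did not keep 1 ratio; the value of replicate 3 rests on 4 counts of Krt15. Krt17, a keratin of hair follicles, glands and injured skin, measured 3.59, 10.7 and 2.52 CPM in the wild type C57BL/6 replicates and 1.08, 0.0970 and 0 CPM in the mutants. It lay between 0 and 0.1502 CPM in BALB/c. Replicate 2 was again the highest, but by less than for Krt5, Krt14 and Krt15.

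Krt1 and Krt10, partners in the layers above the basal layer of skin, were both highest in wild type C57BL/6 replicate 2 and lowest in C57BL/6 mutant replicate 6, over ranges of unequal width. Krt1 measured 0.675, 6.44 and 0.482 CPM in wild type C57BL/6 replicates 1, 2 and 3, and 0.316, 0.194 and 0.108 CPM in the mutants. In BALB/c it measured 0.451, 0.865 and 0.586 CPM in wild type and 0.600, 0.301 and 0.295 CPM in mutant libraries, levels that reached those of C57BL/6 replicates 1 and 3. Krt10 measured 4.21, 6.44 and 4.29 CPM in wild type C57BL/6 and 3.30, 3.40 and 2.53 CPM in mutant libraries. Krt10 measured 3.76, 3.03 and 4.22 CPM in BALB/c wild type and 2.82, 4.00 and 3.54 CPM in BALB/c mutants. The highest Krt10 library was 2.54 times the lowest over all 12, against 59.8 times for Krt1. Per kilobase, Krt1 stood at 0.855 times Krt10 in replicate 2 and at 0.0364 to 0.244 times Krt10 in the other 11 libraries.

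Krt8 and Krt18, the keratin pair of single-layered epithelium, peaked in another library than the basal keratins. Krt8 measured 55.0, 27.5 and 26.6 CPM in wild type C57BL/6 replicates 1, 2 and 3, and 15.05, 0.146 and 0.162 CPM in mutant replicates 4, 5 and 6. In BALB/c it lay at 0.0751, 0.185 and 0.234 CPM in wild type and at 0, 0.818 and 0.0984 CPM in mutant libraries. Replicate 1 was the highest, mutant replicate 4 lay nearer to wild type than to the other mutants, and mutants 5 and 6 lay within the BALB/c range. Krt18 measured 50.5, 23.2 and 27.5 CPM in the wild type C57BL/6 replicates and 17.4, 0.291 and 0.647 CPM in the mutants. It was at 0.376, 0.124 and 0 CPM in BALB/c wild type and 0.240, 0.344 and 0.492 CPM in BALB/c mutant libraries. Per kilobase, Krt8 stood at 0.844, 0.918, 0.750 and 0.671 times Krt18 in C57BL/6 replicates 1 to 4, so these neighbours on chromosome 15 kept close to 1 ratio where they were abundant.

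Krt19, a small type I keratin made in both simple and some basal epithelium, measured 8.31, 12.9 and 3.54 CPM in wild type C57BL/6 replicates 1, 2 and 3. It measured 1.22, 0 and 0.162 CPM in the mutants, and 0.148 to 0.432 CPM in the 6 BALB/c libraries. Its highest library was replicate 2, as for the basal keratins, and replicate 1 came next. Krt7, a type II keratin of glands and ducts, measured 4.47, 12.3 and 5.15 CPM in wild type C57BL/6 and 4.88, 4.51 and 6.14 CPM in mutant libraries. It stayed at 6.46, 7.66 and 5.33 CPM in BALB/c wild type and 5.58, 5.94 and 7.18 CPM in BALB/c mutants. Krt7 was thus at a similar level in every library but replicate 2, and the ranges of all 4 groups overlapped. Its coefficient of variation over the 12 libraries was 34.1%, and that of Krt10 was 26.7%, against 162% to 340% for the other 8 genes.

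**Figure D1:**
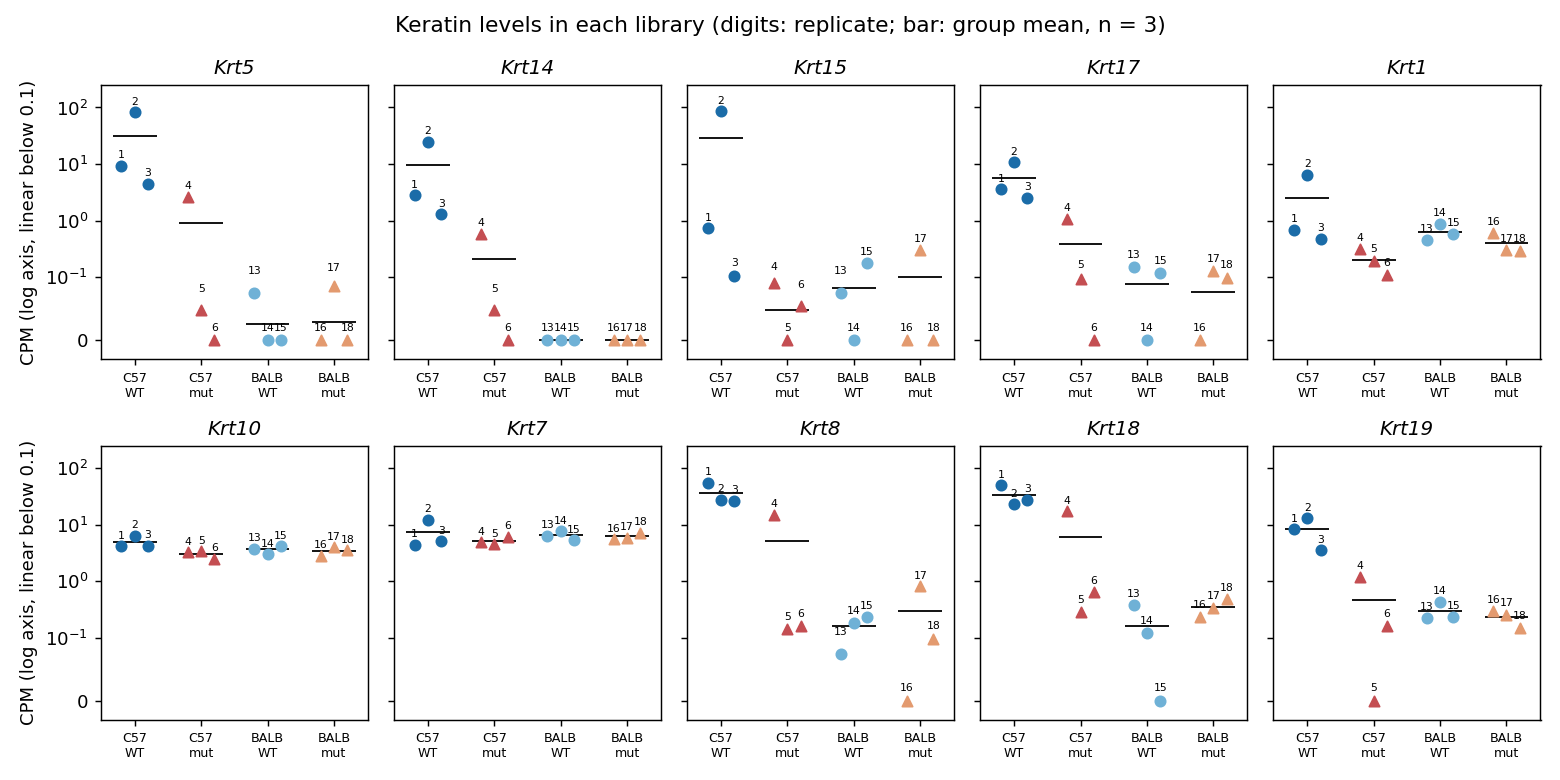
Level of each keratin in each library, in CPM on a log axis that is linear below 0.1, by group (C57 and BALB for the strains, WT for wild type, mut for mutant). Points are libraries marked with their replicate number and bars are group means (n = 3). Wild type replicate 2 holds the highest value of 8 genes and replicate 1 that of Krt8 and Krt18, mutant replicate 4 lies well above mutants 5 and 6 for Krt5, Krt8 and Krt18, and Krt10 and Krt7 span the narrowest ranges.

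Summed per kilobase, the basal keratins Krt5, Krt14, Krt15 and Krt17 reached 108.8 CPM per kilobase in wild type C57BL/6 replicate 2, against 8.78 in replicate 1, 4.54 in replicate 3 and 2.34 in mutant replicate 4. The simple keratins Krt8, Krt18 and Krt19 reached 72.6, 41.3 and 36.9 CPM per kilobase in wild type replicates 1, 2 and 3 and 21.7 in mutant replicate 4. Basal keratins made up 72.5% of the basal and simple sum in replicate 2 and 10.8%, 10.9% and 9.76% in replicates 1, 3 and 4. In this respect mutant replicate 4 resembled wild type replicates 1 and 3, at a lower total. In the other 8 libraries the basal sum was at most 0.300 CPM per kilobase from at most 24 counts, too few to set a share.

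**Figure D2:**
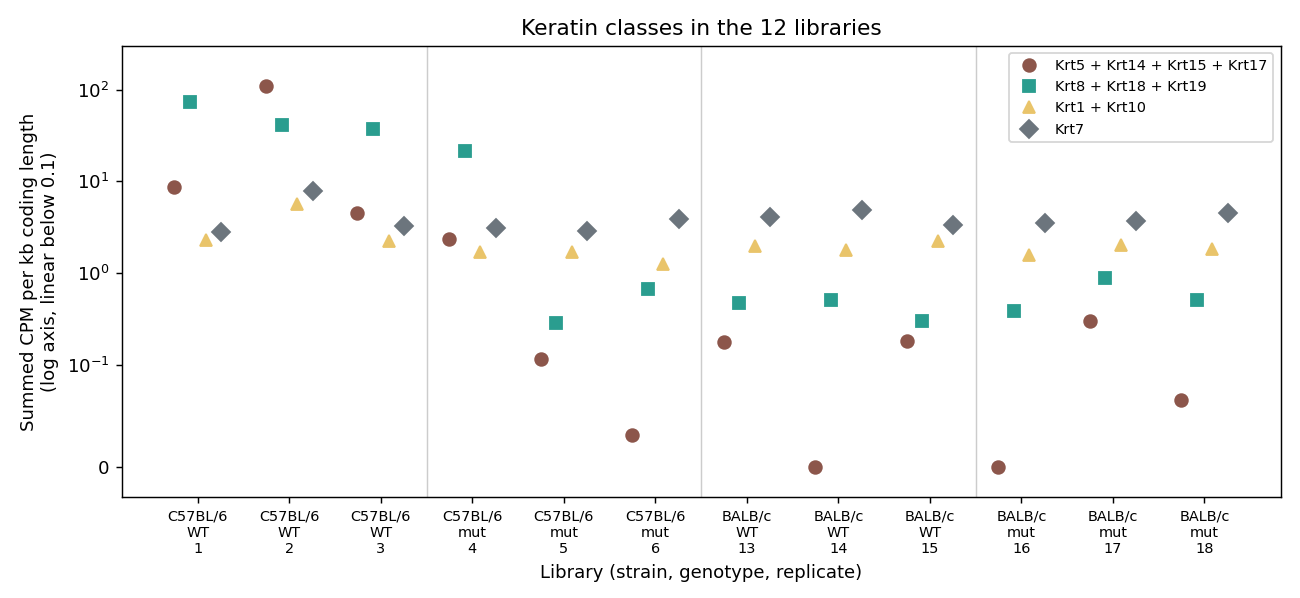
Summed CPM per kilobase of coding length for the basal, simple and suprabasal keratins and for Krt7, in each of the 12 libraries, on a log axis that is linear below 0.1. Basal keratins exceed simple keratins in C57BL/6 wild type replicate 2, and Krt7 lies above both in C57BL/6 mutants 5 and 6 and in all BALB/c libraries.

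The order of the levels differed between the groups. In C57BL/6 wild type, mean levels per kilobase ran from Krt18 (24.1 CPM per kilobase ± 10.5, SD, n = 3) and Krt8 (20.1 ± 8.93) through Krt15 (16.7 ± 28.5), Krt5 (14.5 ± 19.7), Krt19 (6.02 ± 3.42), Krt14 (5.76 ± 7.85), Krt7 (4.62 ± 2.75), Krt17 (3.71 ± 2.95) and Krt10 (2.38 ± 0.606) to Krt1 (1.04 ± 1.38). Each step in this order was smaller than the larger SD of its neighbours. The places of Krt15, Krt5 and Krt14 rest on replicate 2. Krt15 stood at 0.423, 49.6 and 0.0623 CPM per kilobase in replicates 1, 2 and 3. Krt5 stood at 4.29, 37.3 and 2.03, and Krt14 at 1.69, 14.8 and 0.775. In BALB/c wild type, Krt7 led with 4.09 CPM per kilobase ± 0.734 (SD, n = 3), followed by Krt10 with 1.75 ± 0.287 and Krt1 with 0.259 ± 0.0863. These 2 steps exceeded the SDs, while Krt1 and Krt19 (0.216 ± 0.0851) did not differ beyond their spread. The BALB/c mutants had the same leading pair, Krt7 at 3.93 ± 0.532 and Krt10 at 1.65 ± 0.286 CPM per kilobase (SD, n = 3), with the other 8 genes at 0 to 0.256. In C57BL/6 mutants the mean of Krt18 (4.37 ± 6.98) lay above that of Krt7 (3.26 ± 0.540, SD, n = 3) through replicate 4 alone.

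In C57BL/6, the mutants had lower levels of most of these keratins than wild type. The quasi-likelihood test of edgeR, adjusted by Benjamini-Hochberg over 16190 genes, called 7 of the 10 lower and 0 higher at an adjusted p under 0.05, where 12.6% of all genes tested were called lower. The median log2 fold change of the 10 was −3.68, against −0.004 over all genes tested. The mutants lay wholly below wild type for 9 of the 10, all but Krt7, as they did for 21.9% of all genes tested. Krt5, Krt14, Krt15, Krt17 and Krt8 passed the filter on low counts only through the wild type C57BL/6 libraries, and 4 of them are among the 7 called, so the count describes these genes and is not support for a difference. Krt19 fell by 4.13 on the log2 scale (SE 0.916, edgeR adjusted p = 0.00916), Krt5 fell by 5.08 (SE 1.30, adjusted p = 0.0173) and Krt15 fell by 9.10 (SE 2.30, adjusted p = 0.0162). Pooled over the 3 libraries of each group, Krt15 had 2868 counts in wild type and 6 in mutants, a 538-fold ratio with an exact 95% counting interval of 184 to 2610 that leaves out the spread between libraries. Without wild type replicate 2 the ratio was 8.63-fold (2.47 to 46.2). Krt14, Krt17, Krt1 and Krt10 fell by 5.42, 3.79, 3.58 and 0.69 on the log2 scale (edgeR adjusted p = 0.0332, 0.0256, 0.0168 and 0.0424). Krt8 and Krt18 did not pass, at log2 fold changes of −2.81 (95% interval −5.30 to −0.32, edgeR adjusted p = 0.0906) and −2.45 (−4.63 to −0.28, adjusted p = 0.0915), and neither did Krt7 at −0.50 (−1.20 to 0.21, adjusted p = 0.276).

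These calls depended on single libraries. Without wild type replicate 2, without mutant replicate 5 or without mutant replicate 6, Krt19 was the 1 gene of the 10 still called by edgeR (adjusted p = 0.0280, 0.0115 and 0.0397), where 10.6%, 7.24% and 5.36% of all genes tested were called lower. Without mutant replicate 4, 9 of the 10 were called lower, where 16.5% of all genes tested were, and Krt8 fell by 7.86 and Krt18 by 6.18 on the log2 scale (edgeR adjusted p = 2.59e-05 and 1.2e-05). Without both replicate 2 and replicate 4, 7 were called lower, as were 2613 of 16365 genes tested: Krt5, Krt14, Krt17, Krt1, Krt8, Krt18 and Krt19. Without replicate 2, the Krt5 difference moved from −5.08 to −2.91, that of Krt15 from −9.10 to −3.02 and that of Krt1 from −3.58 to −1.46, and Krt7 turned to 0.11. Without mutant replicate 5 these differences moved less, to −4.52 for Krt5, −8.54 for Krt15 and −3.52 for Krt1 (edgeR adjusted p = 0.0515, 0.0595 and 0.0578). Without mutant replicate 6 they were −4.53, −9.16 and −3.28 (edgeR adjusted p = 0.0561, 0.0645 and 0.0699). DESeq2 gave an adjusted p for 8 of the 10 and called Krt1, Krt10 and Krt19, where it called 14.2% of all genes lower. limma-voom called Krt17, Krt10, Krt8, Krt18 and Krt19, where it called 16.5% lower. A fit to the 2 C57BL/6 groups alone called 0, where 4.69% of all genes were called lower. The authors' deposited table gives log2 differences for this comparison of −1.928 for Krt17 (q-value 7.5e-11), −1.654 for Krt19 (6.52e-10), −1.018 for Krt18 (9.31e-05) and −0.5271 for Krt10 (0.02326). It gives no p-value in any comparison for Krt5, Krt14, Krt15, Krt1 and Krt8, which is so for 515 of its 19681 genes. Here and in the strain comparisons below, the authors' differences quoted are smaller in size than those of edgeR. Between the wild types the authors give 0.6117 for Krt14, which had 972 pooled counts in C57BL/6 and 0 in BALB/c. The settings behind the authors' differences are not given in the sources used here, so their sizes are not compared with those of edgeR.

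**Figure D3:**
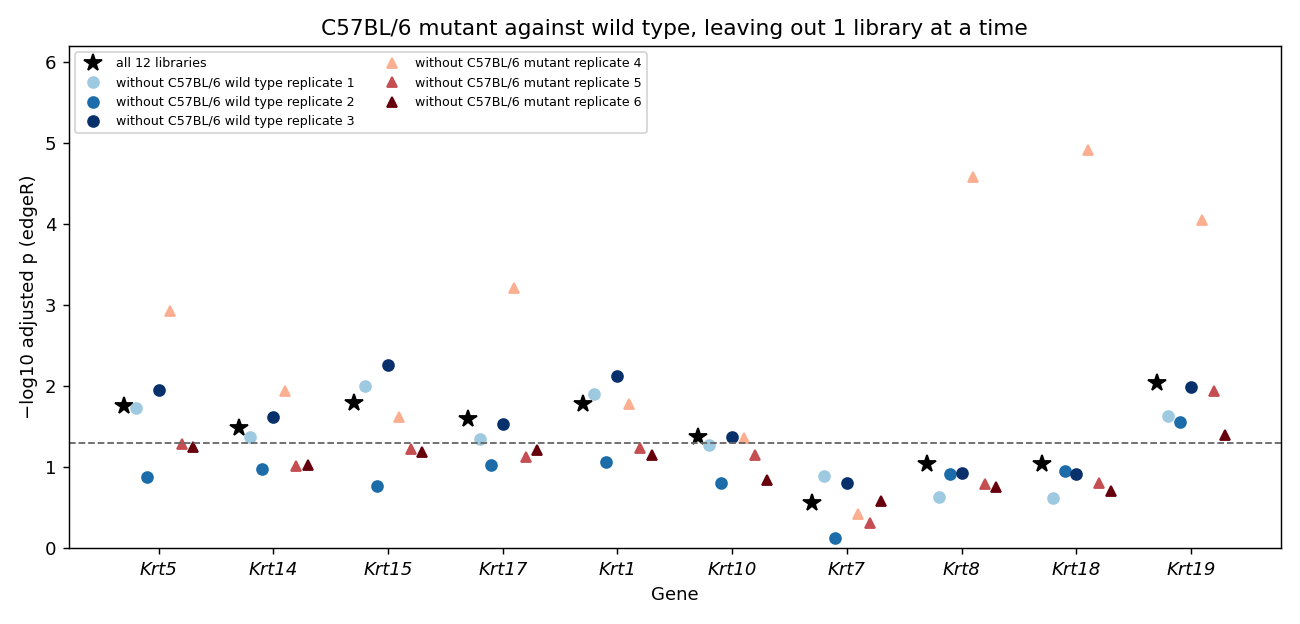
Adjusted p of the C57BL/6 mutant against wild type difference for each keratin, as −log10, with all 12 libraries (stars) and leaving out each C57BL/6 library in turn (circles for wild type, triangles for mutant). The dashed line is the threshold of 0.05. Krt19 stays above the line in all 7 fits, and Krt8 and Krt18 cross it without mutant replicate 4.

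In BALB/c, mutant and wild type levels of all 10 keratins overlapped, as did those of 80.0% of all genes tested. edgeR called 0 of the 10, where 0.136% of all genes tested were called in either direction. Of the 10, 0 had an unadjusted p under 0.05 with edgeR, DESeq2 or limma-voom. The intervals were narrow for the 2 genes that varied least, with a log2 fold change of −0.08 for Krt10 (95% interval −0.57 to 0.41) and −0.06 for Krt7 (−0.76 to 0.65). For Krt18 the difference of 1.24 had an interval of −3.19 to 5.66 on 14 pooled counts in wild type and 44 in mutants, an interval that includes the C57BL/6 value of −2.45. No fold is given for Krt14, which had 0 counts in both groups.

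BALB/c wild type libraries held far less of both the basal and the simple keratins than C57BL/6 wild type libraries, while the ranges of Krt7 and Krt10 overlapped. The run identifiers in the labels give 1 flow cell for all C57BL/6 libraries and another for all BALB/c libraries, so flow cell and strain cannot be told apart. This comparison shares the C57BL/6 wild type libraries with the genotype comparison within C57BL/6. edgeR called 7 of the 10 lower in BALB/c and 0 higher, where 25.6% of all genes tested were called lower. Of the 7, Krt5, Krt14, Krt15, Krt17 and Krt8 passed the filter on low counts only through the C57BL/6 wild type libraries, and Krt19 had 2 BALB/c libraries over the count minimum, too few to pass without C57BL/6. Krt18 alone of the 7 could have passed on BALB/c libraries, so this count, too, describes these genes and is not support for a difference. Krt18 fell by 7.76 on the log2 scale (SE 1.504, edgeR adjusted p = 0.00148), Krt8 fell by 7.71 (SE 1.67, adjusted p = 0.00289) and Krt19 fell by 4.77 (SE 0.977, adjusted p = 0.00208). Krt17 fell by 5.96 (SE 1.30, edgeR adjusted p = 0.00298). For the basal keratins at or near 0 in BALB/c, ratios of counts are given. Krt5 (edgeR adjusted p = 0.00181) had 3238 pooled counts in C57BL/6 and 2 in BALB/c, a 1384-fold ratio with a counting interval of 248 to 54682. Replicate 2 held 2710 of the 3238 counts, and without it the ratio was 324-fold (57.7 to 12864). For Krt14 (edgeR adjusted p = 0.00685), which had 0 counts in BALB/c, the C57BL/6 mean gave an at least 97.8-fold lower BALB/c level, against 3 counts per library, and the lowest C57BL/6 library an at least 13.2-fold lower one. Without replicate 2 the bound from the mean was 20.9-fold, and a floor of 3 read pairs, 6 counts, would give 48.9-fold with all libraries and 6.58-fold from the lowest. limma-voom did not call Krt5, Krt14 or Krt15 (adjusted p = 0.280, 0.103 and 0.450). Krt15 was called as well (edgeR adjusted p = 0.00887), but its groups overlapped, and without C57BL/6 replicate 2 it lost the call (adjusted p = 0.235). Krt1, Krt10 and Krt7 did not pass, at −1.98 (95% interval −3.80 to −0.16, edgeR adjusted p = 0.0682), −0.44 (−0.93 to 0.05, adjusted p = 0.123) and −0.17 (−0.87 to 0.53, adjusted p = 0.684). DESeq2 called Krt1 (−2.01, adjusted p = 0.0279), and edgeR called it without C57BL/6 replicate 1 (−2.43, adjusted p = 0.0301) or replicate 3 (−2.47, adjusted p = 0.0205). Without C57BL/6 replicate 2, Krt1 turned to 0.14 and Krt7 to 0.43. Without replicates 1 and 2, which leaves replicate 3 alone and assumes that it varies like the other groups, Krt5, Krt8 and Krt18 were still called, where 14.1% of all genes tested were called lower. In the authors' deposited table, which takes C57BL/6 minus BALB/c, the log2 difference was 2.4 for Krt17 (q-value 5.93e-19), 1.794 for Krt19 (4.25e-13) and 1.564 for Krt18 (4.73e-11).

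Among the mutants, C57BL/6 replicate 4 held the highest Krt8 and Krt18 levels. edgeR called 1 of the 10, Krt18, which fell by 4.07 on the log2 scale in BALB/c (SE 1.28, adjusted p = 0.0260), where 18.9% of all genes tested were called lower. The Krt18 groups overlapped, and without C57BL/6 replicate 4 its difference was −0.34 (adjusted p = 0.748) and 0 of the 10 were called. Krt18 was also not called without BALB/c mutant replicate 16, 17 or 18 (edgeR adjusted p = 0.0814, 0.0810 and 0.0648), with robust spread (0.0699) or with the 2 groups alone (0.0532). limma-voom did not call Krt18 (adjusted p = 0.429), and DESeq2 did (adjusted p = 0.0114). In the authors' deposited table, which takes C57BL/6 minus BALB/c, the log2 difference of Krt18 was 0.5159 (q-value 0.05652). Krt8 stood at −3.93 (95% interval −7.11 to −0.76, edgeR adjusted p = 0.0520) with replicate 4 and at 1.14 without it. Krt10 and Krt7 stood at 0.17 (−0.32 to 0.66) and 0.27 (−0.43 to 0.97). Mutant replicates 5 and 6 lay within or below the BALB/c range for all of the 10 but Krt14, with 2 counts in replicate 5, and Krt18, at 0.647 CPM in replicate 6. For Krt1 both lay below it.

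**Figure D4:**
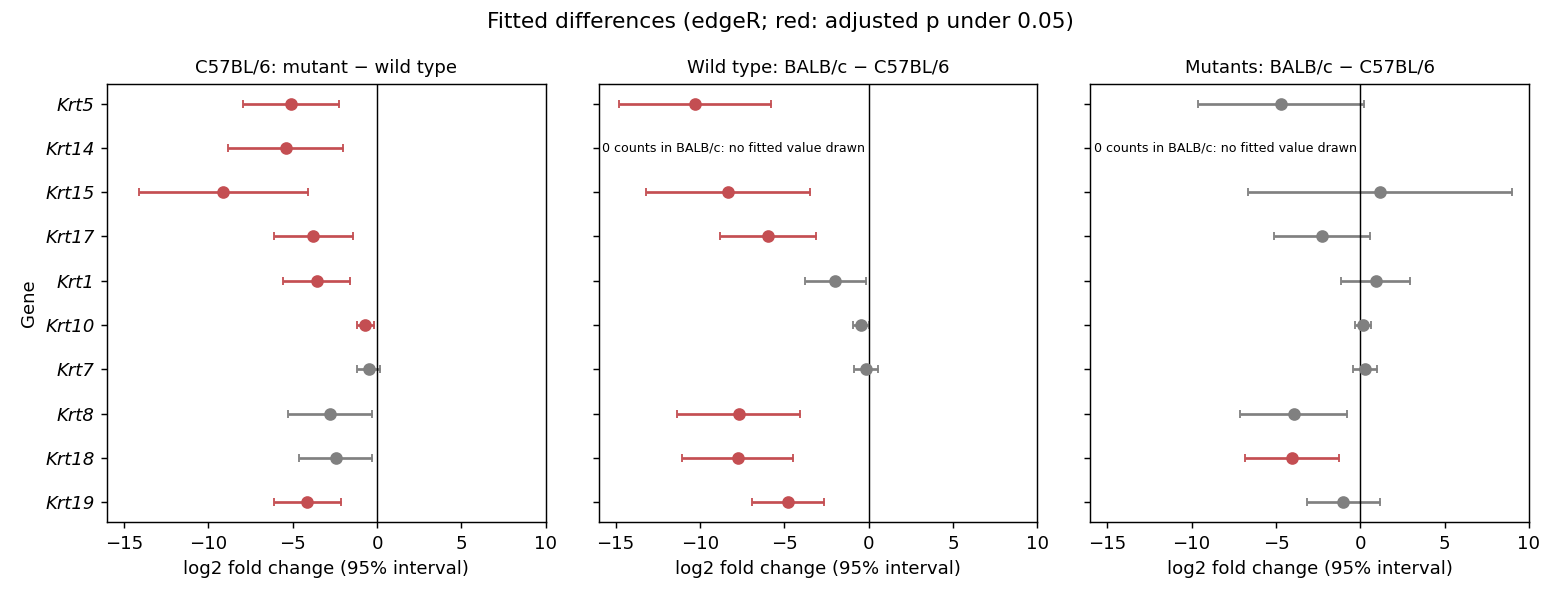
Fitted log2 fold change of each keratin with its 95% interval, for mutant minus wild type in C57BL/6 and for BALB/c minus C57BL/6 in wild type and in mutants (edgeR, 12 libraries, red where the adjusted p is under 0.05). The fitted values of Krt7 and Krt10 lie between −0.69 and 0.27 in the 3 panels, with short intervals, while those of the other genes have wide ones. No value is drawn for Krt14 where BALB/c had 0 counts.

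The test of the difference between the 2 genotype effects, the interaction, called 0 of the 10 with edgeR, in either direction, where 5.46% of all genes tested were called higher, the direction of the fitted values of the 9 keratins other than Krt14. Krt1 and Krt19 had an unadjusted p under 0.05, with interactions of 2.89 (95% interval 0.17 to 5.60, edgeR adjusted p = 0.146) and 3.78 (0.77 to 6.78, adjusted p = 0.0960). DESeq2 and limma-voom also called 0, with 2 and 1 genes at an unadjusted p under 0.05. Thus the lower levels in C57BL/6 mutants, called by edgeR, were not shown to differ from the effect in BALB/c. Without mutant replicate 4, Krt17, Krt8, Krt18 and Krt19 were called (edgeR adjusted p = 0.0205, 0.000963, 0.000430 and 0.00227), where 11.5% of all genes tested were called higher. Without both replicate 2 and replicate 4, Krt5 was called as well (edgeR adjusted p = 0.0209), where 11.4% of all genes were called higher. Among all 12 libraries, Krt5, Krt17 and Krt8 passed the filter on low counts only through the C57BL/6 wild type libraries. These calls therefore describe the genes and are not support for a difference. The interaction uses the same libraries as the genotype effects and is not separate evidence.

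Of the other 41 keratins, 4 passed the filter on low counts and 22 had 0 counts in all BALB/c libraries. The 6 most abundant were Krt4, Krt23, Krt13, Krt6a, Krt80 and Krt79. Krt4 and Krt13, the pair of the moist lining of mouth and oesophagus, measured 23.3 and 9.21 CPM in C57BL/6 wild type replicate 2 and at most 0.572 and 0.0520 CPM elsewhere. Krt6a, a keratin of hair follicles, tongue and injured skin, measured 9.03 CPM in replicate 2 and 0 in the other 11 libraries. Replicate 2 was thus the highest library for keratins of several stratified epithelia, and the next highest for Krt4 was replicate 1, with 22 counts. Krt23 followed the simple keratins instead, with 7.48, 2.59 and 3.59 CPM in wild type replicates 1, 2 and 3, 1.58 CPM in mutant replicate 4 and at most 0.0539 CPM in the other 8 libraries. Krt80 and Krt79 ranged from 0.0984 to 2.47 CPM and from 0.216 to 1.03 CPM over the 12 libraries. The groups overlapped for Krt80, while for Krt79 the C57BL/6 mutants (at most 0.407 CPM) lay below the BALB/c mutants (at least 0.430 CPM), a difference that edgeR did not call (adjusted p = 0.0616).

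Keratin filaments are anchored in desmosomes, which join cells, and in hemidesmosomes, which fix basal cells to the matrix below. Of 19 genes tested for these anchors, 11 were called lower in C57BL/6 mutants and 17 lower in BALB/c wild type by edgeR, and 0 higher, where 12.6% and 25.6% of all genes tested were called lower. The 3 most abundant, the linkers Plec and Dst and the junction protein Jup, are also made outside epithelium, and Plec ranged from 571 to 834 CPM over the 12 libraries. Among 15 epithelial transcription factors and splicing regulators, 7 were called lower in C57BL/6 mutants and 13 lower in BALB/c wild type. Esrp1, a splicing regulator of epithelial cells, measured 29.3, 14.6 and 14.5 CPM in C57BL/6 wild type, 7.91, 0.0485 and 0.0539 CPM in the mutants and at most 0.0600 CPM in BALB/c. Elf5, a regulator of glandular epithelium, had the same high libraries, replicates 1 to 4. Among 15 epithelial junction and surface proteins, 9 were called lower in C57BL/6 mutants and 15 lower in BALB/c wild type, with Epcam at 56.4, 26.7 and 32.4 CPM in C57BL/6 wild type and 17.8, 2.52 and 3.66 CPM in the mutants. F11r, in the same list, varied less, at 24.2 to 35.9 CPM in C57BL/6 wild type and 17.5 to 23.3 CPM in the mutants. It measured 17.7 to 23.8 CPM in BALB/c and was not called by edgeR in C57BL/6 mutants (adjusted p = 0.0614). The median log2 fold changes of the 3 lists were −2.03, −2.66 and −2.49 in C57BL/6 mutants, against −0.004 over all genes tested, and −2.69, −4.91 and −4.12 in BALB/c wild type, against −0.001. In the order filament anchors, regulators and junction proteins, 4 of 19, 7 of 15 and 5 of 15 genes tested passed the filter on low counts only through the C57BL/6 wild type libraries, so these counts and medians describe the genes and are not support for a difference. Without 1 C57BL/6 library, the counts called lower in C57BL/6 mutants ran from 4 to 13, 2 to 14 (of 16 tested in these fits) and 2 to 15, lowest without replicate 2 or mutant 5 or 6 for the anchors, replicate 1 for the regulators and mutant 6 for the junction proteins. The highest counts came without mutant replicate 4, for the anchors also without replicate 3. In these fits the share of all genes tested called lower ran from 5.36% without mutant replicate 6 to 16.5% without mutant replicate 4. It was 5.65% without replicate 1. Of these 3 lists, 0 genes were called by edgeR in BALB/c mutants against wild type, where 0.136% of all genes tested were called.

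Markers of several cell types that the dissection could hold had the same high libraries as the keratins. Their counts of calls stand beside shares over all genes tested of 12.6% lower and 11.3% higher in C57BL/6 mutants and 25.6% lower and 22.8% higher in BALB/c wild type. Only through the C57BL/6 wild type libraries did 5 of 7 sustentacular, 5 of 10 secretory, 5 of 11 neuron, 3 of 8 ciliated and 2 of 8 cornified markers tested pass the filter on low counts, so these counts, too, are a description and not support for a difference. Those of sustentacular cells, the supporting cells of the olfactory lining, summed to 462.8, 240.6 and 267.2 CPM in C57BL/6 wild type replicates 1, 2 and 3, 170.0 CPM in mutant replicate 4, 2.09 and 3.13 CPM in mutants 5 and 6 and 3.09 to 5.21 CPM in BALB/c. Replicate 1 was the highest of these 4 C57BL/6 libraries, as for Krt8 and Krt18, while replicate 3 lay above replicate 2, as for Krt18 but not for Krt8. Of 7 such markers measured, 4 (Cyp1a2, Cyp2a5, Ugt2a1 and Sult1c1) had 0 counts in all BALB/c libraries, and edgeR called 7 of 7 lower in BALB/c wild type and 1 of 7 lower in C57BL/6 mutants, the last a share near that of all genes. Airway and nasal gland secretory markers summed to 696, 243 and 314 CPM in C57BL/6 wild type, 141, 54.3 and 22.4 CPM in the mutants and 85.3 to 120 CPM in BALB/c. In BALB/c, Ltf, also a neutrophil granule gene, held 80.8 to 115 CPM of this sum, while Bpifa1 and Sec14l3 were at most 0.0492 CPM there. Of 10 secretory markers tested, 2 were called lower in C57BL/6 mutants, not far from the share of all genes, and 7 lower in BALB/c wild type. Olfactory sensory neuron markers summed to 291 to 466 CPM in C57BL/6 wild type, 252, 137 and 149 CPM in the mutants and 90.4 to 99.1 CPM in BALB/c. Adcy3, an adenylyl cyclase that is also made outside these neurons, was the most abundant of them and held 71.2 to 81.5 CPM of the BALB/c sum. It rose in C57BL/6 mutants by 0.51 on the log2 scale (edgeR adjusted p = 0.000808), from 83.0, 93.2 and 88.0 CPM to 119, 124 and 133 CPM. Omp, the marker of mature olfactory neurons, measured 99.97, 48.8 and 58.5 CPM in C57BL/6 wild type and 36.1, 0.485 and 0.700 CPM in the mutants. Of 11 neuron markers, 4 were called lower and 1 higher in C57BL/6 mutants, and 11 lower in BALB/c wild type. Ciliated cell markers summed to 41.6 to 54.6 CPM in C57BL/6 wild type, 20.0 to 25.3 CPM in C57BL/6 mutants and 19.3 to 32.98 CPM in BALB/c, with 6 of 8 called lower in C57BL/6 mutants and 7 of 8 lower in BALB/c wild type. Tppp3 held 12.4 to 22.1 CPM of this sum in C57BL/6 wild type, 13.2 to 15.8 CPM in the mutants and 13.8 to 26.4 CPM in BALB/c. edgeR did not call Tppp3 in either comparison (adjusted p = 0.373 and 0.689). Foxj1 measured 5.84 to 14.3, 1.83 to 3.98 and 1.51 to 2.40 CPM in the same order. Cornified skin markers were low throughout, at 12.5, 21.6 and 10.4 CPM in C57BL/6 wild type and 6.16 to 8.83 CPM in the other 9 libraries, with Dsg1a, Sprr1b and Lce1c at 0 in BALB/c. Of 8 cornified markers tested, 3 were called lower in C57BL/6 mutants, and 3 lower and 1 higher in BALB/c wild type. Calml3, a protein of stratified epithelium, was highest in replicate 2 at 10.6 CPM, as the basal keratins were. Sbsn and Tgm1, also in this list, varied less, at 2.76 to 4.52 and 1.07 to 1.75 CPM over the 12 libraries. edgeR called neither in C57BL/6 mutants (adjusted p = 0.573 and 0.737) nor in BALB/c wild type (adjusted p = 0.180 and 0.768). Osteoblast markers summed to 113743, 192069 and 196864 CPM in C57BL/6 wild type replicates 1, 2 and 3 and 219475, 244893 and 262792 CPM in mutants 4, 5 and 6. Replicate 1, the lowest here, was the highest in Krt8, Krt18 and the sustentacular and secretory markers. Of the 10 osteoblast markers, 8 were called higher in mutants with all libraries. The count was 9 without wild type replicate 1, 2 or 3, where 7.69%, 9.40% and 10.9% of all genes tested were called higher. It was 8 without mutant replicate 4, where 12.8% were, and 6 without mutant replicate 5 or 6, where 6.60% and 5.09% were. Without replicate 1, 0 of the sustentacular, secretory and neuron markers and 3 of the ciliated were called lower in mutants, where 5.65% of all genes were. Without mutant replicate 4, 7 of 7 sustentacular, 8 of 11 secretory, 10 of 11 neuron and 7 of 8 ciliated markers were called lower, where 16.5% of all genes were. The part of these cell types in the keratin results was not tested.

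**Figure D5:**
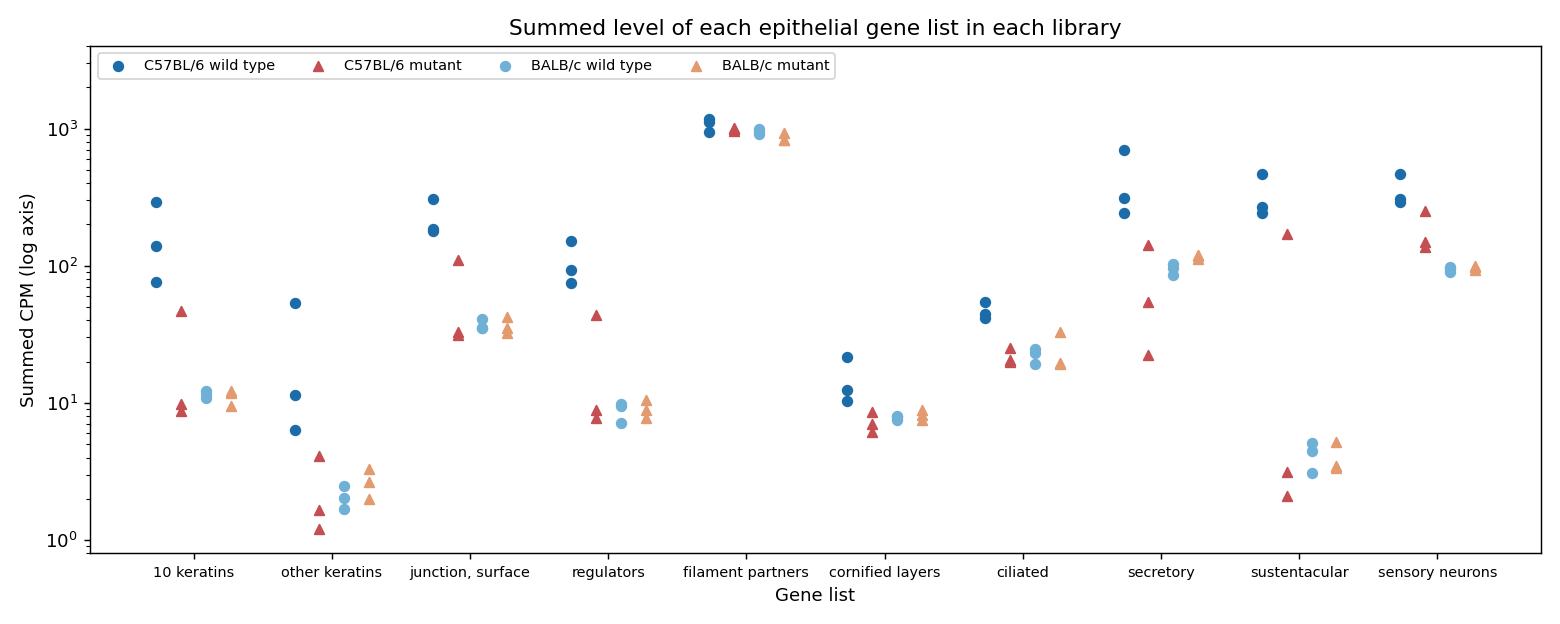
Summed CPM of the 10 keratins and of each epithelial gene list in each library, on a log axis, coloured by group. For the 10 keratins, the regulators and the sustentacular markers, 1 C57BL/6 mutant (replicate 4) lies between the wild type libraries and the other 2 mutants, which lie near the BALB/c libraries. The filament partners stay near 1000 CPM because Plec takes most of their sum.

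The genes most like Krt14 and Krt8 over the 12 libraries were sought among 13869 genes with a mean of at least 1 CPM, by Pearson's correlation of log2 CPM. The most like Krt14 were Perp (r = 0.972) and Dsp (0.968), both desmosome genes, Col17a1 (0.963), a hemidesmosome collagen, Tbc1d1 (0.956), a regulator of glucose transport, and Trp63 (0.955), the transcription factor of basal cells. The most like Krt8 were Atp6v0a4 (r = 0.986), a proton pump subunit, D130043K22Rik (0.983), Dsc2 (0.982), a desmosome cadherin, Ttll10 (0.981) and Tmprss4 (0.979), an epithelial surface protease. Col17a1 peaked in replicate 2 at 22.5 CPM against 6.49 CPM in replicate 1, as Krt14 did, and Atp6v0a4 peaked in replicate 1 at 10.4 CPM against 5.48 CPM in replicate 2, as Krt8 did. Perp and Dsp also peaked in replicate 2, while Trp63 (5.72 against 5.35 CPM) and Tbc1d1 (35.4 against 33.7 CPM) did so only narrowly. D130043K22Rik, Ttll10 and Tmprss4 also peaked in replicate 1. Dsc2 peaked in replicate 2 instead, at 13.4 CPM against 11.5 CPM in replicate 1. The correlations are descriptions: the points share groups, flow cell and depth within a library, and they fall into 4 high C57BL/6 libraries and 8 low ones.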

How the data were processed

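The 10 genes and the gene lists were chosen with earlier results of these data known. Per the submitters' processing notes, reads were handled with bcl2fastq, TopHat2 2.0.6, HTSeq and DESeq2 on mm10; the roles and settings are not given in the sources used here. The authors deposited raw counts and a coding length per gene. The authors' RPKM values were used only to check library totals: gene counts made up 75.6% to 88.0% of the RPKM library total. The authors also deposited a table of log2 fold changes with p-values and q-values, quoted only where named. Of the count columns, 0 belonged to no sample of the series.

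The deposited counts were tested with edgeR 4.0.16 (R 4.3.3): filterByExpr (minimum count 10, minimum total 15; 16190 of 23358 genes kept), TMM scaling, 1 quasi-likelihood model with a mean per group over all 12 libraries, Benjamini-Hochberg adjustment over all genes tested and a threshold of 0.05. P-values and intervals are two-sided. The standard errors follow from the F statistic. Log2 CPM used a prior count of 2. Counting intervals treat each 2 counts as 1 event. Total counts per library ran from 27.2 M to 46.5 M. The fit was tested on simulated counts. Replicates of a group were compared first, and at most 1.05% of tested genes had equal counts in any pair. Alternatives were other scalings, DESeq2 1.42.0, limma-voom (limma 3.58.1), no filter, robust spread, fits to 2 groups and leaving out libraries; leaving out replicates 2 and 4 together, or 1 and 2 together, was chosen after seeing the data, as were the count ratios without replicate 2, the floor of 6 counts and the gene list counts without 1 library.

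Named were all 10 genes, the 6 most abundant other keratins, the 3 most abundant genes of each list and the 5 genes most like Krt14 and Krt8; 1 gene that this rule names is not reported here. Dsg1a, Sprr1b, Lce1c, Cyp1a2, Cyp2a5 and Sult1c1 are named only as the markers at 0 in BALB/c, chosen after their values were seen.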

Additional observations from a re-analysis of the deposited data

How the results depend on the processing

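Calls for the 10 keratins rested on few libraries. In C57BL/6, mutant against wild type, edgeR called 7 of 10, DESeq2 3, a fit to the 2 groups alone 0, fits without 1 library 1 to 9, and fits without wild type replicates 1 and 2 called 0. Over all genes the count was 3867, against 1458 with the 2 groups alone, 1724 to 4833 without 1 library and 615 without replicates 1 and 2. In BALB/c the 22 genes became 4 with total counts, 314 with DESeq2, 44 with limma-voom, 45 with robust spread, 71 with 2 groups and 0 to 95 without 1 library. For the strains in wild type, 7 keratins became 4 with limma-voom and 3 without replicates 1 and 2, and 7847 genes became 4384. For the strains in mutants, 1 keratin became 0 with limma-voom, robust spread, 2 groups, or without replicates 2 and 4, 2 with no filter, and 0 to 2 without 1 library. Over all genes the main count for this comparison was 5968, 36.9% of those tested. It was 5939 with RLE size factors and 5954 with total counts, each with 1 keratin called. For the interaction, 0 keratins became 0 to 4 without 1 library and 5 without replicates 2 and 4. Its 1626 genes became 2683 with DESeq2, 624 to 3129 without 1 library, 2998 without replicates 2 and 4 and 285 without replicates 1 and 2. Apart from fewer libraries or groups in a fit, the cause was not tested.

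Some uncalled log2 differences changed sign. Krt7 in C57BL/6 turned to 0.11 without replicate 2, 0.14 without replicates 2 and 4 and 0.015 without 1 and 2 (lowest to highest without 1 library −0.73 to 0.11), and its interaction to −0.16, −0.19 and −0.069 (−0.16 to 0.68). In BALB/c, Krt8 turned to −0.42 with limma-voom, and without 1 library ran over −1.60 to 1.46, with Krt7 over −0.18 to 0.089 and Krt10 over −0.20 to 0.049. Between the wild types, Krt1 and Krt7 turned to 0.14 and 0.43 without replicate 2, 0.13 and 0.43 without 2 and 4, and 0.39 and 0.33 without 1 and 2 (−2.47 to 0.14 and −0.42 to 0.43). Between the mutants, Krt19 turned to 0.73 with limma-voom, and Krt5, Krt17, Krt8 and Krt19 turned to 0.34, 0.66, 1.14 and 1.56 without replicate 4 and 0.33, 0.65, 1.13 and 1.56 without 2 and 4 (−8.08 to 0.34, −2.84 to 0.66, −6.49 to 1.14 and −1.57 to 1.56).

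Scaling by total counts moved the median of all genes by −0.20 in C57BL/6, −0.11 and 0.12 between strains in wild types and mutants, and 0.23 for the interaction. It moved the share of calls that were higher from 47.5% to 13.2%, 47.1% to 31.2%, 48.8% to 67.8% and 54.4% to 90.5%. The counts of keratins called stayed at 7, 7, 1 and 0. No paired analysis was possible because the groups share no replicate numbers. Depth limits the basal keratins in BALB/c, where no library held more than 14 counts of any of them.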
